A study of Mus musculus with 15 samples.

Results

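The ligands and receptors of axon guidance were followed in fast-spiking, parvalbumin-class interneurons of mouse somatosensory cortex from postnatal day (P) 7 to P40. Members were taken by gene symbol: semaphorins of classes 3 to 7, plexins and neuropilins, ephrins and Eph receptors, Slits and Robos, and the netrins with netrin-G, Unc5 proteins, Dcc and Draxin. Each gene was read from the probe set annotated to it alone that had the highest mean over the 15 arrays. 72 of the 18193 genes on the array met this rule, of which 38 encode ligands, 33 encode receptors and 1, Plxna4os1, is an antisense transcript of a plexin gene. Values are log2 signals as deposited, and 5 on that scale served as the limit of background. Only genes above 5 on 3 or more of the 15 arrays were tested, which left 45 of the 72 members among 9663 genes tested. Ephb2 also meets the symbol rule, but no probe set was annotated to it alone, and it was not analysed here.

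The samples were GFP-expressing neurons of G42 mice, a line in which a GFP transgene under the Gad1 promoter marks parvalbumin-class cells. Each of the 5 ages, P7, P10, P15, P25 and P40, was represented by 3 animals with 1 array each, and the oldest group covered mice up to day 45. All groups carry the same transgene and no other allele or agent is given in the labels. Slices were digested with protease, the somatosensory cortex was dissected, and between 23 and 85 fluorescent cells per animal were aspirated by hand and pooled, so the values describe labelled cells that survived dissociation and picking. The RNA went through 2 rounds of amplification before hybridization.

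Guidance cues tell growing axons and migrating neurons where to turn, stop or branch. Class 3 semaphorins are secreted and act through neuropilins, which hold the ligand, and A-type plexins, which carry the signal into the cell, whereas most other semaphorins are membrane proteins that bind plexins directly. Ephrins sit on the cell surface and signal through Eph receptor tyrosine kinases of the cell they touch, and in the reverse direction into their own cell. Slits repel through Robo receptors, and netrins attract or repel through Dcc and Unc5 receptors. In the cortex the same families also act after axon growth, in interneuron migration and in the formation and pruning of synapses.

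The labelled identity was checked against markers. Pvalb was under 5 on all P7 arrays, at 3.19 to 4.45, and read 14.05 to 14.42 on the P40 arrays, and Gad1 lay between 13.47 and 15.35 on all 15 arrays. Genes of other interneuron classes were also present. Sst, a peptide of a neighbouring class, ran from 1.72 to 13.04 with a mean of 11.53 at P7 and 8.34 at P40. Npy, Reln and Cck exceeded 5 on all arrays. The means at P7 and P40 were 12.04 and 9.35 for Reln and 9.19 and 3.93 for Chodl. They were higher at P40 for Npy (10.92 and 12.27), Cck (8.41 and 11.96) and Nos1 (4.11 and 5.81). Crh averaged 10.67 at P7, 13.73 at P25 and 9.85 at P40. Vip and Htr3a exceeded 5 on no array, and Calb2 and Lamp5 on 1 each. The glutamatergic marker Slc17a7 lay between 2.41 and 2.62, but Nrgn, another gene of the excitatory list, read 8.93, 8.78 and 8.47 at P10 and 8.51 on P15 replicate 1. The summed log2 signal of 9 excitatory markers was 8.73 to 9.46 at P10, 6.82 to 7.63 at P7, 6.67 to 8.8 at P15 and at most 6.7 later; Rorb and Fezf2 exceeded 5 on 2 arrays and 1 array, and the other 6 on none. Cldn5 of endothelial cells lay between 2.36 and 2.51. Of 10 endothelial and mural markers, 9 exceeded 5 on no array. The summed log2 signal of 9 microglial markers was 6.75 to 7.63 at P7 and 6.29 to 6.45 at P40. Csf1r averaged 5.11 at P7 and 3.28 at P40, and C1qb 5.39 and 4.5. The sum of 6 oligodendrocyte precursor markers was 5.82 to 5.99 at P7 and 5.74 to 6.51 at P40. The part of microglial transcripts in the differences between P7 and P40 was not tested. Transcripts of glia were present at some ages: the astrocyte transporter Slc1a2 read 8.30 to 8.55 at P10 and 6.37 to 7.23 at P25 but no more than 5.79 at the other ages, and the astrocyte genes Gja1 and Aqp4 exceeded 5 on P10 replicates 2 and 3 and P25 replicate 2 only. The summed signal of 9 astrocyte markers ran, on the log2 scale, from 8.67 to 10.05 at P10 and from 8.25 to 10.3 at P25, against 6.79 to 7.97 at P7, 6.53 to 7.35 at P15 and 6.45 to 8.53 at P40, while Gfap stayed at or below 2.8. Mbp and Mobp, which encode myelin proteins, reached 10.48 to 11.58 and 6.34 to 8.37 at P25. Of 8 oligodendrocyte markers, the only other one above 5 on any array was Cnp, with means of 10.75 at P7 and 9.79 at P25. Mog, Mag, Cldn11, Opalin and Ermn exceeded 5 on no array. The 3′ minus 5′ difference of the actin control probe sets, a measure of how far RNA was shortened before labelling, was 4.64 to 6.41 at P7 and 3.4 to 4.5 at P40 without overlap. The spiked hybridization controls were low on P15 replicates 2 and 3, with medians of 2.50 and 2.45 against 9.28 to 12.7 on the other arrays.

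Most guidance genes that changed between P7 and P40 fell. Of the 45 tested members, 23 were lower at P40 and 5 were higher at an adjusted p under 0.05 (limma, adjusted over all 9663 genes), and 17 were not called. The 23 are 51.1% of the tested members, beside 17.6% of all genes tested that were lower, and the 5 are 11.1%, beside 27.5% of all genes that were higher. In 7 of the 23, all 3 P40 arrays were at or under 5, so they passed the filter through earlier ages alone. For these 7, Draxin, Epha3, Ephb1, Nrp1, Sema3c, Sema4c and Sema6a, the filter favoured a fall. The median log2 difference, P40 minus P7, was -0.85 over the tested members and 0.18 over all genes tested. Setting every value under 5 to 5 left the members' median at -0.85, and averaging the probe sets of each gene brought it to -0.42. The P7 and P40 arrays did not overlap in 23 of the 45 tested members (51.1%) that were lower at P40 and in 7 of the 45 that were higher, beside 22.6% and 33.1% of all genes. This set of 23 includes Robo1, which was not called, and leaves out Epha7, which was called lower. A moderated F test over the 5 ages called 27 members, 60% of those tested, beside 47.2% of all genes. Because each array pools RNA of picked cells, fewer cells that express a gene and less RNA per cell cannot be told apart.

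The scale of the arrays matters for these shares. As deposited, 39% of the genes called between P7 and P40 were lower and 61% were higher. After quantile normalization 48.5% of calls were lower, and after setting the array medians equal 50.6% were, with the median of all genes moving from 0.177 to 0.009 and -0.04. In both cases 26 guidance genes were lower, including each of the 23, while 4 and 3 were higher. With the actin 3′ minus 5′ difference as a covariate, 19 of the 23 stayed called lower and 1 of the 5, Epha10, stayed called higher.

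**Figure D1:**
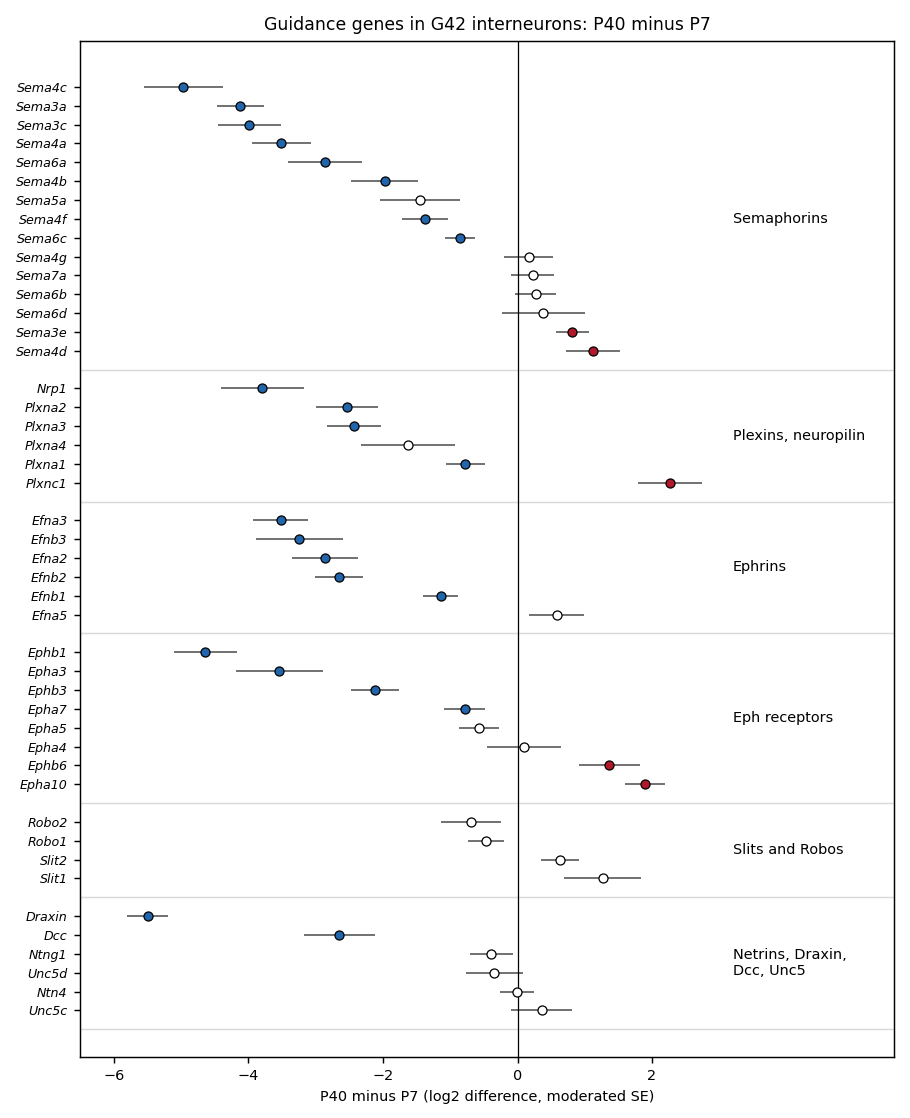
Log2 difference, P40 minus P7, of the 45 tested guidance genes by family, with bars of 1 moderated SE. Blue points are called lower, red points higher and white points are not called (limma, adjusted p under 0.05 over all genes tested). All 5 called ephrins lie left of 0. Of the 5 red points, 4 turn white under at least 1 other scaling, probe set rule or covariate, and Epha10 does not.

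Beside 17.6% of all genes lower, 27.5% higher and an all-gene median of 0.18, 14 of the 26 ligands tested were lower at P40 and 2 were higher, with a median log2 difference of -1.26. Among receptors, 9 of 19 tested were lower and 3 were higher, with a median of -0.78. The semaphorins were the largest family, with 20 members, and 8 of the 15 tested fell while 2 rose.

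The class 3 semaphorins split. Sema3a, a secreted repellent of axons, read 12.07, 11.97 and 11.29 at P7, 10.95, 10.60 and 11.23 at P10 and 9.93, 9.70 and 9.49 at P15, then 9.77, 9.52 and 8.69 at P25 and 7.24, 8.34 and 7.41 at P40. The mean was lower at each age than at the age before it, and the highest P40 array lay below the lowest array of every earlier age. Sema3a fell 17.4-fold from P7 to P40 (log2 difference -4.12, SE 0.34, adjusted p 5.1e-07). It was called in 2 separate steps, 2.32-fold lower from P10 to P15 and 3.17-fold lower from P25 to P40 (adjusted p 0.036 and 0.041). The call from P10 to P15 was lost when any of the 3 P10 arrays or P15 replicate 2 or 3 was left out, at differences between -1.38 and -1.06. The call from P25 to P40 was lost without P25 replicate 1 or 2 or P40 replicate 1 or 3, at differences between -1.57 and -1.44, and, at -1.66, without P7 replicate 2, P10 replicate 2 or P15 replicate 2 or 3, which enter through the shared spread.

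Sema3c, a secreted cue that binds neuropilins, read 9.02, 8.15 and 7.50 at P7, 6.72, 7.24 and 7.74 at P10 and 6.21, 5.59 and 7.14 at P15, then 4.33, 4.20 and 4.70 at P25 and 3.81, 4.78 and 4.11 at P40. All 9 arrays up to P15 were above 5 and all 6 later arrays were below it. Because it passed the filter through the 9 earlier arrays alone, a difference from the later ages was bound to be found. The fall from P7 to P40 was at least 9.34-fold (log2 difference -3.99, SE 0.47, adjusted p 1.1e-05), a bound because the P40 arrays were at background. Its largest step was from P15 to P25, at least 2.48-fold (adjusted p 0.031). That step's call was lost without P15 replicate 1 or 3 or without any of the 3 P25 arrays, at differences between -2.04 and -1.49.

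Sema3e, which binds plexin D1 without a neuropilin, went the other way. It read 11.72, 11.20 and 11.14 at P7, 11.56, 11.99 and 11.92 at P10 and 12.12, 11.94 and 11.22 at P15, then 12.31, 12 and 12.02 at P25 and 12.49, 11.91 and 12.11 at P40. The P40 arrays lay above the P7 arrays by a narrow gap, with the other ages between or among them. The rise was 1.76-fold (log2 difference 0.81, SE 0.25, adjusted p 0.014). The call was lost with equal array medians (0.60), with the mean of its probe sets (0.48), with the actin covariate (0.88), and when P7 replicates 2 (0.74) or 3 (0.70) or P40 replicate 1 (0.65) were left out. A second probe set of Sema3e differed by 0.45 and was not called. Its receptor gene Plxnd1 lay between 2.33 and 2.58 on every array.

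The other class 3 genes were at or near background. Sema3d reached 7.24 on P7 replicate 1 and was at most 4.19 on the other 14 arrays. Sema3f exceeded 5 on P10 replicates 1 and 3, at 5.04 and 5.14, and read at most 4.01 from P15 on. Sema3b and Sema3g did not exceed 3.74 and 3.10.

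The bases upstream of the transcript start are shown for Sema3c and Sema3e, because they are related secreted ligands that moved in opposite directions. Each also has a single listed start, at the outer end of the gene. At least 8 of the called members have such a start, in a count that left out a chromosome. Both are RefSeq sequences of build GRCm38.p6, on the plus strand, at chr5:17574566-17574815 for Sema3c and chr5:14025026-14025275 for Sema3e, each covering the 250 bases before the start. Capitals mark the letters of a GC box, GGGCGG, read on either strand.
Sema3c: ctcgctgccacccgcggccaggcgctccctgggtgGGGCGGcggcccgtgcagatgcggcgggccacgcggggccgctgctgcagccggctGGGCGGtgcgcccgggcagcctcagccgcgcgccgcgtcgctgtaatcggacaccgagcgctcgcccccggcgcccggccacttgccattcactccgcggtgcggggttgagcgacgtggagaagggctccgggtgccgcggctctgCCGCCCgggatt
Sema3e: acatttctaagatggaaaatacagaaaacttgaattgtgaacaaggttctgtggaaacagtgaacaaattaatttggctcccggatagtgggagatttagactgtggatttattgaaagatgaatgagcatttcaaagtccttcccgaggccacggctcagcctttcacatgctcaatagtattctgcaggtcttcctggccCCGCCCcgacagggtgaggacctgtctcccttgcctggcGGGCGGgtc
The Sema3c window holds 3 GC boxes, 215, 159 and 12 bases before the start, and the Sema3e window holds 2, at 48 and 9 bases. The windows differ in base composition, with 78.4% G and C and 39 CG pairs for Sema3c against 48% and 7 for Sema3e. RefSeq windows were found for 61 of the 72 members, 77 windows in all because some genes have several starts. A GC box was present in 71.4% of these windows, beside 32.7% of the 32851 windows of all genes. Those windows cover 27025 RefSeq genes, and the sets were not matched for gene type or number of starts. It was present in 74.1% of the 27 windows of genes lower at P40 and 71.4% of the 7 windows of genes higher at P40. A TATA box, TATAAA, was present in 2.6% of members' windows and 12.4% of all windows. The other letters searched on both strands were TAATTA (a homeodomain site; 3.9% and 4.84%), ACAAAG (SOX; 10.4% and 16.5%), AAGGTCA (estrogen-related receptors; 5.19% and 4.08%), TGACGTCA (CRE; 1.3% and 1.55%) and the MEF2 site, searched by its consensus (1.3% and 3.2%). None of these was found in the 2 windows shown, so no match there overlaps another motif. A match describes the letters only, and a missing match says only that they are not in this window.

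All 6 class 4 semaphorins, which are membrane-anchored, were tested, and 4 fell while 1 rose. Among all genes tested 17.6% were lower and 27.5% higher. Sema4c, a ligand of plexin B2, read 8.61, 8.35 and 8.12 at P7, 5.40, 6.89 and 6.58 at P10 and 4.29, 5.08 and 5.33 at P15, then 5.26, 5.12 and 3.70 at P25 and 2.71, 4.81 and 2.67 at P40. The P7 arrays stood above every later array, and the P40 arrays were all below 5. The fall was at least 10.3-fold (log2 difference -4.96, SE 0.59, adjusted p 1.3e-05). Sema4c passed the filter through ages up to P25 alone, so the filter favoured a fall. Plxnb2 itself lay between 2.21 and 2.40.

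Sema4a read 10.74, 10.56 and 10.20 at P7, 10.73, 10.01 and 9.35 at P10 and 7.93, 7.75 and 8.58 at P15, then 8.11, 7.57 and 7.90 at P25 and 6.33, 8.09 and 6.54 at P40. P7 and P10 overlapped with each other and not with the 3 later ages. The fall from P7 to P40 was 11.4-fold (log2 difference -3.51, SE 0.44, adjusted p 2e-05). The step from P10 to P15 was 3.85-fold lower (adjusted p 0.016), and it was not called without P10 replicate 1 (-1.59), P10 replicate 2 (-1.96) or P15 replicate 2 (-1.78). It was also not called with the mean of its probe sets (-1.23). A second probe set of Sema4a was called lower from P7 to P40 too, with means of 7.32 at P7 and 4.36, under the limit, at P40. Its timing differed, at -2.19 from P7 to P10 and -0.52 from P10 to P15, neither of them called.

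Sema4b fell 3.92-fold, from 7.06 ± 0.62 (SD, n = 3) at P7 to 5.09 ± 0.31 at P40 (adjusted p 0.0048), a call lost with the actin covariate, at -1.29. Sema4f fell 2.61-fold, from 12.15 ± 0.49 to 10.77 ± 0.36 (adjusted p 0.0044), with a P25 mean of 11.56 ± 0.53 that was above its P15 mean. With the actin covariate its difference was -1.08 and not called, and its second probe set differed by -1.24 and was not called. Sema4d, the ligand of plexin B1, read 6.42, 6.03 and 5.66 at P7 and 6.83, 7.91 and 6.73 at P40, without overlap, a 2.18-fold rise (log2 difference 1.12, SE 0.40, adjusted p 0.033). The Sema4d call was lost after quantile normalization (0.89), with equal array medians (0.90), with the mean of its probe sets (0.27), with the actin covariate (0.66) and when P7 replicates 2 (1.12) or 3 (0.93) or P40 replicate 2 (0.74) were left out. Plxnb1 did not exceed 4.34. Sema4g was not called, at 9.11 ± 0.52 and 9.27 ± 0.14.

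Sema5a, a transmembrane semaphorin with thrombospondin repeats, was lowest at P25. It read 8.19, 9.97 and 9.96 at P7, 9.68, 10.70 and 9.09 at P10 and 8.66, 8.64 and 8.43 at P15, then 5.42, 5.38 and 7.06 at P25 and 6.96, 8.83 and 7.99 at P40. The P25 arrays lay below every array of the first 3 ages and overlapped with P40 through P25 replicate 3. The F test called it (adjusted p 0.00075), P15 to P25 was 6.15-fold lower (adjusted p 0.022), and P40 minus P7 was not called (-1.45, adjusted p 0.061). Without P25 replicate 1 (-2.36), P25 replicate 2 (-2.33), P15 replicate 2 (-2.59) or P15 replicate 3 (-2.69) the step was not called. Slc1a2, Mbp and Mobp, named above, were high at P25, while most other oligodendrocyte markers were at background. The part of glial transcripts in this dip was not tested. A second probe set of Sema5a also had its lowest mean at P25, 4.09, below the limit of 5. Sema5b did not exceed 3.74.

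Of the 4 class 6 semaphorins, which are transmembrane ligands of A-type plexins, 2 fell, beside 17.6% of all genes tested. Sema6a fell from 7.24, 7.0 and 6.07 at P7 to 3.37, 4.19 and 4.18 at P40, at least 3.42-fold (log2 difference -2.86, SE 0.55, adjusted p 0.00076). Here too the filter was passed through ages up to P25 alone and favoured a fall. Sema6c fell 1.81-fold with a small spread, from 8.69, 8.42 and 8.74 at P7 to 7.73, 7.69 and 7.87 at P40 (adjusted p 0.0064). Sema6b, at 5.32 ± 0.08 and 5.59 ± 0.28, and Sema6d, at 7.72 ± 0.61 and 8.10 ± 0.62, were not called at P40 against P7 or by the F test. Sema7a, which is tethered to the membrane by a lipid anchor and binds plexin C1, was not called by either test, at 11.23 ± 0.58 at P7 and 11.45 ± 0.27 at P40.

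**Figure D2:**
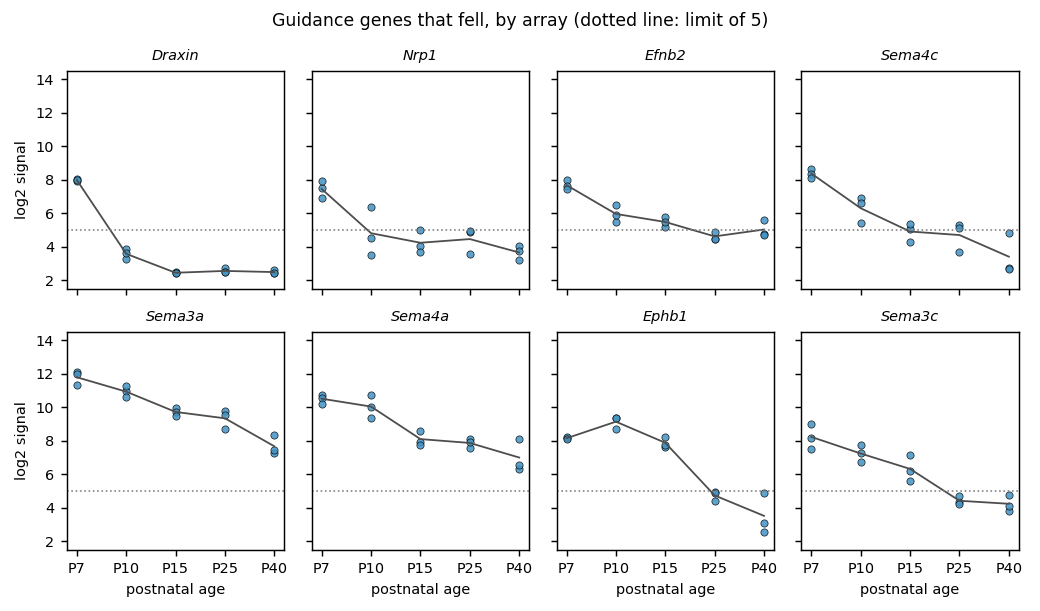
Log2 signal of 8 guidance genes lower at P40 than at P7, by postnatal age, with each array as a point, the mean of 3 arrays as a line and the background limit of 5 dotted. Draxin dropped between P7 and P10, Ephb1 and Sema3c dropped between P15 and P25, and the mean of Sema3a was lower at each later age. The direction from P7 to P40 was lower for all 8 under every scaling tried.

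The receptors of the class 3 semaphorins were followed next. Nrp1, the co-receptor that binds Sema3a, read 6.91, 7.51 and 7.90 at P7, 6.35, 3.52 and 4.53 at P10 and 4.03, 3.66 and 4.98 at P15, then 4.88, 3.56 and 4.93 at P25 and 4.01, 3.19 and 3.74 at P40. Only the P7 arrays and P10 replicate 1 were above 5. Because it passed the filter through those 4 arrays, a difference was bound to be found. The fall from P7 to P40 was at least 5.42-fold (log2 difference -3.79, SE 0.62, adjusted p 0.00021), and a second probe set was called lower too, with means of 6.22 at P7 and 2.50 at P40. The step from P7 to P10 was called as well (-2.64, adjusted p 0.029), but not without P10 replicate 2 (-2.0), P10 replicate 3 (-2.51), P7 replicate 2 (-2.61) or P7 replicate 3 (-2.41). Without P10 replicate 1 it was called at -3.42. Nrp2 lay between 2.60 and 2.99 on all arrays.

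Of 9 plexin symbols, 5 were tested, of which 3 fell and 1 rose, beside 17.6% lower and 27.5% higher of all genes. Plxna2, a signalling receptor for class 3 and class 6 semaphorins, read 11.88, 12.97 and 13.81 at P7, 12.20, 12.74 and 11.07 at P10 and 10.41, 10.96 and 10.74 at P15, then 9.24, 8.92 and 9.98 at P25 and 10.47, 10 and 10.59 at P40. The P7 and P10 arrays lay above all later arrays, and the P25 arrays were the lowest. Plxna2 fell 5.79-fold from P7 to P40 (log2 difference -2.53, SE 0.46, adjusted p 0.00047). Its other 3 probe sets were called lower too, by -0.86, -1.98 and -2.59 (adjusted p 0.037, 0.00082 and 0.0011 over all probe sets fitted, of which 41.9% were called).

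Plxna3, a co-receptor partner of neuropilins, read 8.28, 7.15 and 7.43 at P7 and 4.73, 5.48 and 5.34 at P40, a 5.41-fold fall (log2 difference -2.43, SE 0.40, adjusted p 0.00022). Plxna1 fell 1.72-fold, from 8.68 ± 0.29 to 7.90 ± 0.29 (adjusted p 0.039). The Plxna1 call was lost with the replicate block (-0.78), with the actin covariate (-0.60), without P25 replicate 2 (-0.78), without P15 replicates 2 and 3 (-0.78), and when P7 replicates 2 (-0.78) or 3 (-0.63) or P40 replicates 1 (-0.72) or 3 (-0.67) were left out. Plxna4 was called by the F test only (adjusted p 0.024). Its means were 9.21 ± 1.64 at P7, 9.01 ± 1.03 at P10 and 7.27 ± 0.60 at P15, then 6.70 ± 0.75 at P25 and 7.58 ± 0.48 at P40, and the P7 arrays, at 7.53, 9.28 and 10.81, overlapped with P40.

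Plxnc1, the receptor of Sema7a, rose. It read 9.79, 7.81 and 8.05 at P7, 8.36, 8.67 and 9.77 at P10 and 9.78, 10.51 and 10.75 at P15, then 10.24, 10.31 and 9.83 at P25 and 10.42, 11.08 and 10.96 at P40. P7 replicate 1 was the highest of its age, level with the lowest arrays of P15 and P25, and all P40 arrays were above it. The rise from P7 to P40 was 4.81-fold (log2 difference 2.27, SE 0.47, adjusted p 0.0013), and without P7 replicate 1 the difference was 2.89. With the actin covariate it was 1.27 and not called. A second probe set was under 5 at P7, at 2.93, 4.42 and 3.40, and read 6.49, 8.02 and 7.45 at P40 (called, adjusted p 2e-04). The remaining one, over 5 on 3 arrays, was not called. The B-type plexins Plxnb1, Plxnb2 and Plxnb3 and also Plxnd1 exceeded 5 on no array.

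**Figure D3:**
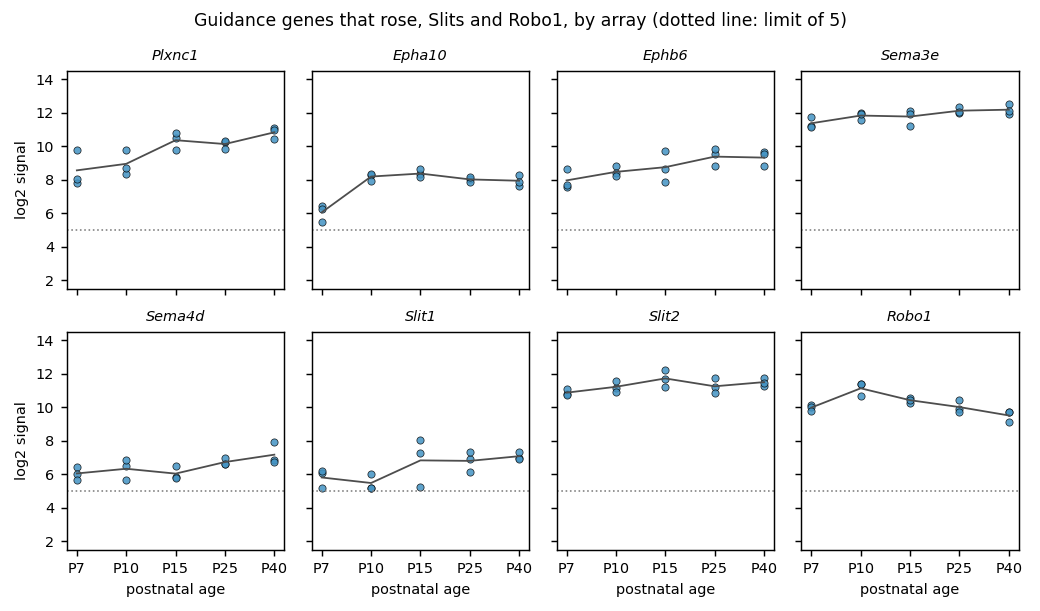
Log2 signal of the 5 guidance genes called higher at P40 than at P7, and of Slit1, Slit2 and Robo1, by postnatal age, with each array as a point, the mean of 3 arrays as a line and the background limit of 5 dotted. Epha10 stepped up between P7 and P10, and Robo1 was highest at P10 with the probe set used. The calls of Plxnc1, Ephb6, Sema3e and Sema4d were lost with the actin covariate, while the differences kept their sign under every scaling tried.

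Ephrins, the ligands of the Eph receptors, fell or were not called, and none rose. Of the 3 ephrin-A genes tested, whose products are anchored by a lipid, 2 fell, beside 17.6% of all genes tested. Efna3 read 9.03, 9.72 and 9.64 at P7, 8.65, 8.31 and 7.53 at P10 and 7.47, 7.15 and 6.66 at P15, then 6.90, 7.33 and 6.08 at P25 and 5.40, 6.44 and 6.0 at P40. The P7 arrays were above all others, and the mean was lower at each later age. From P7 to P40 the fall was 11.5-fold (log2 difference -3.52, SE 0.41, adjusted p 9.6e-06), while a second probe set fell by 1.12 on the log2 scale (adjusted p 0.046 over all probe sets fitted).

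Efna2 fell from 7.08, 6.89 and 9.02 at P7 to 4.64, 5.04 and 4.72 at P40 (log2 difference -2.86, SE 0.49, adjusted p 0.0003). Without P7 replicate 3, the highest array, the difference was -2.19 and still called. Efna5 was not called by either test, with its highest mean, 8.40 ± 0.20, at P10 against 7.13 ± 0.69 at P7 and 7.71 ± 0.59 at P40. Efna1 and Efna4 did not exceed 3.60 and 2.18.

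All 3 ephrin-B genes, which encode transmembrane ligands, fell, beside 17.6% of all genes tested. The largest step was from P7 to P10 in Efnb1 and Efnb2 and from P15 to P25 in Efnb3. Efnb2 read 7.99, 7.59 and 7.43 at P7, 5.49, 6.50 and 5.87 at P10 and 5.15, 5.79 and 5.48 at P15, then 4.87, 4.48 and 4.48 at P25 and 4.78, 5.58 and 4.70 at P40. The P7 arrays stood apart from all later arrays. It fell 6.27-fold from P7 to P40 (log2 difference -2.65, SE 0.36, adjusted p 3.7e-05), a fold against background, since 2 of the 3 P40 arrays were under 5. The step from P7 to P10 was 3.29-fold lower (adjusted p 0.015). Its second probe set was called lower from P7 to P40, with means of 5.99 and 3.81, and its step from P7 to P10, at -0.51, was not called.

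Efnb1 dropped early and then stayed level. It read 7.63, 7.44 and 7.80 at P7, 6.62, 6.61 and 6.43 at P10, and between 6.15 and 6.63 on all 9 later arrays. The P7 arrays did not overlap with any other age. The fall was 2.20-fold to P40 (log2 difference -1.14, SE 0.26, adjusted p 0.0023) and 2.11-fold to P10 (adjusted p 0.031). The P10 call was lost without P7 replicate 1 (-1.07), P7 replicate 3 (-0.99), or P10 replicate 1 (-1.11), 2 (-1.10) or 3 (-1.02).

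Efnb3 dropped late. It read 9.12, 7.17 and 9.09 at P7, 8.21, 8.20 and 8.79 at P10 and 8.12, 9.34 and 9.17 at P15, then 6.06, 6.08 and 4.34 at P25 and 4.04, 6.31 and 5.30 at P40. Every array up to P15 lay above every array from P25 on. The step from P15 to P25 was 10.4-fold lower (log2 difference -3.38, SE 0.64, adjusted p 0.0082), and P7 to P40 was 9.48-fold lower (adjusted p 0.00093). Without P7 replicate 2, its low P7 array, the difference between P7 and P40 was -3.89. With P15 replicates 2 and 3 left out, which leaves a single P15 array and takes its spread from the other ages, the step was -2.63 and not called.

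Of the 13 Eph receptor genes, 8 were tested, of which 4 fell and 2 rose. Of all genes tested, 17.6% were lower and 27.5% higher. Ephb1, a receptor of ephrin-B ligands, read 8.13, 8.19 and 8.12 at P7, 8.68, 9.35 and 9.37 at P10 and 7.63, 8.24 and 7.74 at P15, then 4.92, 4.90 and 4.37 at P25 and 3.11, 2.56 and 4.85 at P40. The 9 arrays up to P15 were at 7.63 or above and the 6 later arrays were below 5, so the gene crossed the limit on all arrays between P15 and P25. It passed the filter through the 9 earlier arrays alone, so a difference from the later ages was bound to be found. The fall from P15 to P25 was at least 7.30-fold (log2 difference -3.14, SE 0.46, adjusted p 0.0016), and from P7 to P40 at least 8.84-fold (adjusted p 2.4e-06). Against the single P15 array left without replicates 2 and 3, assumed to vary like the other ages, the step was -2.90 and not called.

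Ephb3 fell 4.36-fold, from 8.15, 8.55 and 8.81 at P7 to 5.84, 6.96 and 6.33 at P40 (log2 difference -2.12, SE 0.36, adjusted p 0.00024), and its P10 mean, 8.59 ± 0.50, was close to that of P7. Ephb6, an Eph receptor without kinase activity, rose 2.58-fold, from 8.64, 7.54 and 7.66 at P7 to 8.79, 9.62 and 9.53 at P40 (log2 difference 1.37, SE 0.45, adjusted p 0.022). The lowest P40 array exceeded the highest P7 array by a narrow margin. The Ephb6 call was lost with the actin covariate (0.47) and when P7 replicates 2 (1.16) or 3 (1.22) or P40 replicates 2 (1.21) or 3 (1.26) were left out. Ephb4 did not exceed 2.06.

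Epha10, likewise an Eph receptor without kinase activity, was the only riser whose call held under all of the alternatives tried. It read 6.40, 5.46 and 6.26 at P7, 8.29, 8.32 and 7.93 at P10 and 8.31, 8.61 and 8.15 at P15, then 8.02, 7.86 and 8.15 at P25 and 8.29, 7.62 and 7.88 at P40. The P7 arrays were below all 12 later arrays, which covered a range of 7.62 to 8.61. The step from P7 to P10 was 4.40-fold (log2 difference 2.14, SE 0.30, adjusted p 0.00073) and the rise to P40 was 3.71-fold (adjusted p 0.00015).

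Epha3 exceeded 5 on the P7 arrays, at 5.42, 8.0 and 7.15, and on P10 replicate 1, at 6.35, and lay between 3.30 and 3.96 on the other 11. It too passed the filter through the ages where it is high. Its fall from P7 to P40 was at least 3.63-fold (log2 difference -3.54, SE 0.64, adjusted p 0.00046). Without P7 replicate 1 the difference was -4.26. Epha7 was called lower by a small margin, from 9.38 ± 0.30 at P7 to 8.59 ± 0.45 at P40 with overlapping arrays (1.72-fold, adjusted p 0.047). The Epha7 call was lost with the mean of its probe sets (-0.10), with the replicate block (-0.79) and with the actin covariate (-1.08). It was lost as well without P10 replicate 2 or 3 or any of the 3 P25 arrays (-0.79), and when P7 replicates 1 (-0.80) or 2 (-0.63) or P40 replicates 1 (-0.65) or 3 (-0.66) were left out. Its 3 other probe sets differed by -0.17, -0.46 and 1.04, none of them called.

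Epha5 and Epha4 were not called with the probe sets used. Epha5 read 11.12 ± 0.35 at P7 and 10.55 ± 0.26 at P40. Epha4, which binds ephrins of both classes, read 7.97 ± 0.69 at P7, 7.93 ± 1.36 at P10 and 8.39 ± 0.61 at P15, then 8.84 ± 0.29 at P25 and 8.06 ± 0.41 at P40. Its 3 other measurable probe sets gave another course, with P40 minus P7 differences of -2.15, -2.39 and -1.81 that were not called, and with F tests at adjusted p 0.0094, 0.0065 and 0.17 over all probe sets fitted. The 2 that were called had their highest means at P10, 10.07 and 8.21, and their lowest at P25, 4.57 and 3.31. The course of Epha4 therefore depends on the probe set read. Epha1, Epha2 and Epha6 exceeded 5 on no array, and Epha8 did so on P7 replicate 3 and P10 replicate 1, at 5.98 and 5.97.

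**Figure D4:**
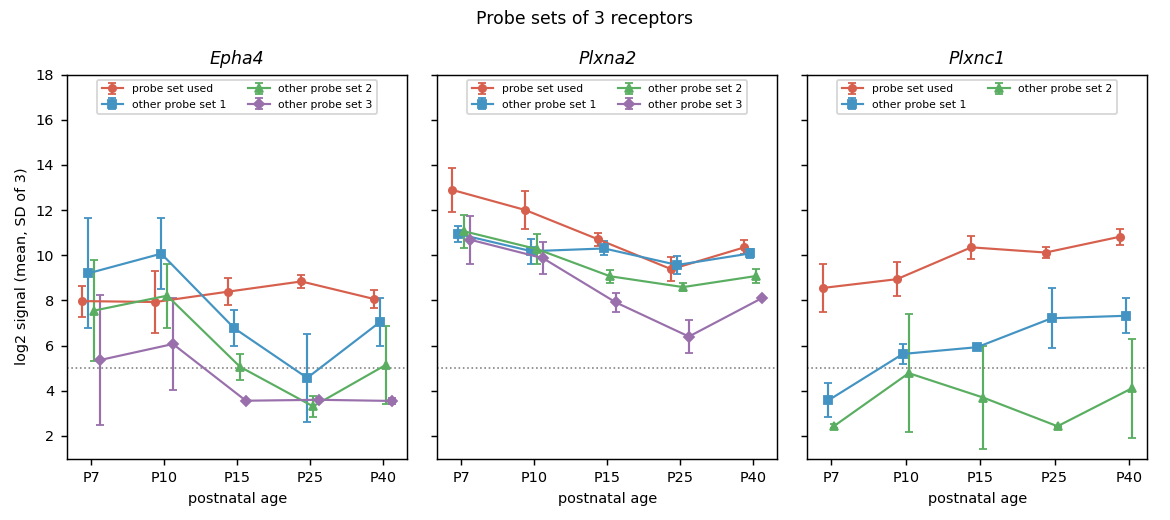
Log2 signal by postnatal age of each probe set of Epha4, Plxna2 and Plxnc1 that exceeded 5 in at least 3 arrays, as the mean and SD of 3 arrays, with the background limit of 5 dotted. The 4 probe sets of Plxna2 are lower at P40 than at P7 and the 3 of Plxnc1 are higher, while those of Epha4 differ in course. Heights of different probe sets are not comparable.

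Slits and Robos had few calls. Slit1, a secreted repellent, read 6.04, 6.17 and 5.20 at P7, 5.19, 5.20 and 6.0 at P10 and 5.21, 8.01 and 7.24 at P15, then 6.92, 7.34 and 6.12 at P25 and 6.98, 6.92 and 7.30 at P40. The P40 arrays were above the P7 arrays, but the difference of 1.26 was not called (adjusted p 0.085). Slit2 also did not overlap between P7, at 10.78, 11.09 and 10.70, and P40, at 11.27, 11.75 and 11.43, and was not called (0.63, adjusted p 0.081). Slit3 did not exceed 3.91.

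Robo1, a receptor of Slits, was highest at P10 with the probe set used. It read 10.15, 10 and 9.75 at P7, 11.36, 10.64 and 11.35 at P10 and 10.52, 10.26 and 10.45 at P15, then 9.88, 10.45 and 9.68 at P25 and 9.10, 9.69 and 9.73 at P40. All P10 arrays exceeded those of every other age. The step from P7 to P10 was 2.22-fold up (log2 difference 1.15, SE 0.27, adjusted p 0.029), the F test gave an adjusted p of 0.0021, and P40 minus P7 was not called (-0.46, adjusted p 0.17). Leaving out P7 replicates 2 (1.16) or 3 (1.04) or P10 replicates 1 (1.03) or 3 (1.03) ended the call of the step. Transcripts of other cells were also high at P10. On its replicate 1, which read 11.36 for Robo1, Gja1 and Aqp4 were at 3.25 and 2.66, Slc1a2 at 8.30 and Nrgn at 8.93, and the part of these cells in the P10 values was not tested. Without P10 replicates 2 and 3 and P25 replicate 2, a comparison with a single P10 array assumed to vary like the other ages, the difference was 1.39 and not called. A second Robo1 probe set was higher at P40 than at P7 by 1.41 (adjusted p 0.015 over all probe sets fitted). Robo2 was not called, at 6.03 ± 1.03 and 5.34 ± 0.47, and Robo3 and Robo4 did not exceed 3.28 and 2.47.

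In the netrin group, a ligand of Dcc and Dcc itself fell. Draxin, a secreted repellent that binds Dcc, read 7.90, 8.02 and 7.99 at P7, 3.24, 3.83 and 3.63 at P10, and between 2.40 and 2.72 on the 9 arrays from P15 on. The P7 arrays lay close together and were the only ones above 5. Having passed the filter through P7 alone, the gene had to differ from the other ages. From P7 to P10 the fall was at least 7.84-fold (log2 difference -4.41, SE 0.30, adjusted p 7.7e-07). P15 against P10 was called as well (-1.13, adjusted p 0.029), with both ages under the limit.

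Dcc, the netrin receptor, read 10.17, 9.27 and 9.12 at P7, 8.30, 9.17 and 9.81 at P10 and 6.92, 8.69 and 8.25 at P15, then 8.46, 8.17 and 6.71 at P25 and 7.05, 6.66 and 6.91 at P40. Neighbouring ages overlapped, while P7 and P40 did not. No single step was called, and the fall from P7 to P40 was 6.27-fold (log2 difference -2.65, SE 0.53, adjusted p 0.00098), with a second probe set at -2.46 (adjusted p 0.0094 over all probe sets fitted).

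Ntn4, a laminin-like netrin, was not called and varied little, at 10.17 ± 0.34 at P7, 10.25 ± 0.38 at P10 and 9.99 ± 0.26 at P15, then 9.88 ± 0.27 at P25 and 10.16 ± 0.04 at P40. The difference between P40 and P7 was -0.01 with an SE of 0.25. Ntn1, Ntn3 and Ntn5 did not exceed 2.41, 1.58 and 2.75. Ntng1, a membrane-anchored relative that does not bind Dcc, was not called at 8.75 ± 0.17 and 8.36 ± 0.40, whereas its second probe set was called higher at P10 than at P7, with means of 7.42 and, under the limit, 4.45 (adjusted p 0.024 over all probe sets fitted). Ntng2 did not exceed 3.63.

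The Unc5 receptors, which turn netrin responses to repulsion, were not called where tested. Unc5c read 7.75 ± 0.89 at P7 and 8.10 ± 0.26 at P40, and Unc5d 9.21 ± 0.68 and 8.86 ± 0.06. Unc5a lay between 3.96 and 4.34 on all 12 arrays up to P25 and read 5.46, 4.68 and 5.37 at P40, so 2 arrays crossed the limit and it was not tested. Unc5b did not exceed 4.54.

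The steps between neighbouring ages share arrays, so their counts are given side by side. From P7 to P10, 6 members were called, 4 lower (Draxin, Efnb1, Efnb2, Nrp1) and 2 higher (Epha10, Robo1), beside 3.6% of all genes, 1.23% lower and 2.37% higher. From P10 to P15, 3 were called, all lower (Draxin, Sema3a, Sema4a), beside 11.4% of all genes, 2.79% lower and 8.57% higher. From P15 to P25, 4 were called, all lower (Efnb3, Ephb1, Sema3c, Sema5a), beside 4.86%, 2.49% lower and 2.37% higher. From P25 to P40, 1 was called lower (Sema3a), beside 0.673%, 0.269% lower and 0.404% higher. Without P10 replicate 3 the first step had 3 calls. The second had none without P10 replicate 2 or P15 replicate 2 (limma, 7 and 11 at an unadjusted p under 0.05), 1 without P10 replicate 1 or P15 replicate 3, and 5 to 7 without P15 replicate 1, P7 replicate 1 or P10 replicate 3. The P15 to P25 step had 2 calls without P15 replicate 3, P25 replicate 1 or P25 replicate 2. Single step calls differed in how many alternatives kept them. For P7 to P10, Draxin and Epha10 were called in 25 of 25, Efnb2 in 24 of 25, Nrp1 in 17 of 24, Robo1 in 16 of 25 and Efnb1 in 15 of 25. For P10 to P15, Sema4a was called in 20 of 25, Draxin in 17 and Sema3a in 15. For P15 to P25, Efnb3 and Ephb1 were called in 24 of 25, Sema5a in 18 and Sema3c in 14, and for P25 to P40, Sema3a was called in 12. Draxin, Nrp1, Ephb1 and Sema3c passed the filter only through the earlier ages, where they are high. Their counts therefore lend no support to their steps.

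Members differed in how much they were expressed at all. 32 members exceeded 5 on all 15 arrays, 13 tested members did so on some arrays, 4 exceeded it on 1 or 2 arrays and 23 on none, of which Unc5b had the highest value, 4.54.

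2 further lists of the pathway were read beside the ligands and receptors. Of 34 co-receptors and other guidance cues, 27 were tested, 11 were lower at P40 and 2 were higher, with a median log2 difference of -0.40, beside the 17.6% lower and 27.5% higher of all genes. Neo1, the Dcc relative that binds netrins and repulsive guidance molecules, fell 3.80-fold, from 13.18 ± 0.13 to 11.25 ± 0.20 (adjusted p 1.1e-05). L1cam, a partner of neuropilin 1 in Sema3a reception, fell 2.79-fold (adjusted p 7e-05), and the glypican Gpc1, which binds Slit proteins, fell 3.99-fold (adjusted p 0.00013). The 2 that rose were Lrrc4, the postsynaptic binding partner of netrin-G2, at 6.61-fold, from 8.79 ± 0.79 to 11.52 ± 0.35 (adjusted p 3e-05), and Nfasc, an adhesion protein of the axon initial segment, at 1.68-fold (adjusted p 0.031).

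Of 56 genes of cytoplasmic guidance signalling, 48 were tested, 13 were lower and 11 were higher, with a median of 0, beside 17.6% lower and 27.5% higher of all genes. Among those that fell were Dpysl3, a collapsin response mediator protein, at 12.7-fold, from 13.04 ± 0.13 to 9.37 ± 0.34 (adjusted p 1.3e-07), and its relative Crmp1, at 6.01-fold (adjusted p 1.5e-07). Mical1, which oxidises actin downstream of plexins, fell from 10.16 ± 0.58 to 3.80 ± 1.18 (adjusted p 1.4e-05). Among those that rose were Chn1, a Rac inhibitor that acts below Epha4, at 11.2-fold (6.50 ± 1.48 to 9.99 ± 0.16, adjusted p 6e-04), Farp2, an exchange factor bound by A-type plexins, from 4.31 ± 0.76 to 8.23 ± 0.43 (adjusted p 3.1e-05), and Pitpna, a lipid transfer protein that binds Dcc, at 2.45-fold (adjusted p 2.7e-05).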

How the data were processed

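The authors deposited 1 log2 value per probe set for each of 15 Affymetrix whole-genome mouse arrays, made with GCRMA per the submitters' processing notes; the sources used here do not give its version or whether all arrays were processed together. Depth has no counterpart on arrays, and 3 animals per age limit the precision. There were 45101 probe sets, and the 34945 with a single annotated gene were read; 932 list several genes, 9160 list none and 64 are controls. Values were used as deposited and ran from 0.51 to 16.13.

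limma 3.58.1 in R 4.3.3 fitted a mean per age to all genes tested, with a trended prior (10 residual and a median of 4.85 prior degrees of freedom) and no covariate. Tests were two-sided, Benjamini-Hochberg adjusted p-values were taken over 9663 genes within each contrast, and the threshold was 0.05. Folds need means above 5 at both ages. If every array of the lower age was at or under 5, the higher age's mean over 5 gives an at-least fold, and otherwise only levels are given. Other probe sets were tested in a fit over 15381 single-gene probe sets.

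The members, the lists and the settings were chosen with earlier results of these data known. Every member may be named. Of each pathway list, up to 3 called genes per direction with the smallest adjusted p were named. Alternatives were quantile normalization, equal array medians, no filter, a filter at 7, values under 5 set to 5, the mean of a gene's probe sets, a replicate block, the actin 3′ minus 5′ covariate, leaving out each array, and leaving out P15 replicates 2 and 3. Each other probe set, and leaving out P10 replicates 2 and 3 with P25 replicate 2, were added after seeing the data. The fit was tested on simulated data. Sequences are RefSeq's, matched by symbol. Figures used Python 3.11.15, pandas 2.3.3 and matplotlib 3.10.9.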

Additional observations from a re-analysis of the deposited data

How the results depend on the processing

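Over these alternatives, 18 (filter at 7, 37 members tested) to 32 (no filter, 72 tested) guidance genes were lower at P40 than at P7 and 1 to 7 higher. Of all genes, 1484 of 8007 were lower with the filter at 7 and 5523 of 18193 without a filter. Without a filter 66.6% of all calls were lower, and the members' median was -0.22. With the actin covariate 2652 of 9663 genes were called, 48.4% of them lower. Members called higher numbered 3 with equal array medians, 3 with the mean of probe sets and 1 with the actin covariate. Step calls over all genes were counted in the main fit only, so the members' step counts below have no such share beside them. P10 to P15 had 6 calls after quantile normalization, 6 with equal array medians and 1 with the actin covariate. Without the filter, P15 to P25 had 2 calls and P25 to P40 had 10. P25 to P40 had 0 with the mean of probe sets, the replicate block or the actin covariate (limma; 7, 5 and 9 at an unadjusted p under 0.05). Leaving out P15 replicates 2 and 3 gave 0 calls in P10 to P15, P15 to P25 and P25 to P40 (limma; 9, 9 and 5 at an unadjusted p under 0.05). Leaving out P10 replicates 2 and 3 and P25 replicate 2 gave 2 calls in P7 to P10, 2 in P15 to P25 and 0 in P25 to P40 (limma; 5 at an unadjusted p under 0.05). Of the 24 other measurable probe sets of members, 16 had the sign of the one used and 8 did not: 3 of Epha4 and 1 each of Epha5, Epha7 (1.04, adjusted p 0.23), Ntng1, Robo1 and Sema5a. Where 1 array of an age is left, it is assumed to vary like the other ages, and the lost calls say nothing about stability. The cause was not tested in any of these.

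Leaving out single arrays gave 21 to 25 members lower, 2 to 6 higher, 25 to 32 by the F test, 3 to 7 calls from P7 to P10, 0 to 7 from P10 to P15, 2 to 4 from P15 to P25 and 0 to 1 from P25 to P40. Of all 9663 genes tested, 1322 (without P40 replicate 1) to 1755 (without P10 replicate 1) were lower at P40 in these fits. The F test called 3916 (without P40 replicate 1) to 4869 (without P10 replicate 3) of all genes. The co-receptor list had 10 to 15 calls and the signalling list 21 to 25, beside 3490 to 4535 calls over all genes. Calls higher numbered 2 without P7 replicate 2 or 3 and 3 without P40 replicate 2.

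Replicate numbers recur across ages but name different animals. Same-numbered arrays had correlations of deviations from -0.40 to 0.27, with 3 of 30 pairs over 0.1. Differently numbered arrays ran from -0.35 to 0.52, with 12 of 60 pairs over 0.1. With 3 arrays per age, these values cannot show whether same-numbered arrays share an effect. With the replicate block 22 members were lower, 5 higher and 26 called by the F test. Of all 9663 genes, 1642 were lower and 4112 called by the F test.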
